A study of Mus musculus with 12 samples.

Results

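The 10 genes described here encode myeloid receptors for antibodies and for microbial or damage signals, and the adaptors through which they signal: the Fc gamma receptors Fcgr1, Fcgr2b, Fcgr3 and Fcgr4, the adaptors Fcer1g and Tyrobp, the receptor Trem1 and the C-type lectins Clec4d, Clec4e and Clec7a. They were taken by symbol from a table of 55415 entries, and each symbol matched 1 entry. All 10 were among the 13668 genes tested, which had at least 1 FPKM in at least 3 libraries. FPKM is the authors' deposited level per gene, the count per kilobase of exons and per mega count of the library.

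Fc gamma receptors bind the constant part of IgG on coated cells or immune complexes. Fcgr1, Fcgr3 and Fcgr4 are activating and depend on Fcer1g, a small transmembrane chain whose tyrosine motif (the ITAM) recruits the kinase Syk, while Fcgr2b carries an inhibitory motif that recruits the phosphatase encoded by Inpp5d. Tyrobp, also called DAP12, is the matching adaptor for Trem1, a receptor that amplifies inflammatory responses of neutrophils and monocytes. Clec4e (Mincle) and Clec4d (MCL) recognise glycolipids and signal through Fcer1g, and Clec7a (Dectin-1) binds beta-glucan and carries its own tyrosine motif. Lectin signals pass from Syk through Card9, Bcl10 and Malt1 to cytokine genes. In tumours these genes are expressed mainly by macrophages, monocytes, neutrophils and dendritic cells.

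The samples were 12 bulk RNA libraries of tumours formed by CT26, a mouse colon carcinoma line whose cells the labels call wild type, in 4 groups of 3: untreated mice (control), mice given Complex 1, mice given radiation, and mice given Complex 1 with radiation (the combination). The series title describes a platinum complex that X-rays activate. The labels used here state no strain, age, dose, time or irradiated site. Nor do they tie libraries to separate animals, so a p-value covers only the spread between libraries within groups, estimated over all 4 groups. This spread may be technical. Comparisons used edgeR's quasi-likelihood test on counts, with Benjamini-Hochberg adjustment over the 13668 genes and a threshold of 0.05. Changes are log2 fold changes ± SE, and only genes that passed are said to have risen or fallen.

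Each library held 15.6 to 19.1 mega counts. Of 8 epithelial markers, Epcam, Cdh1, Krt8, Krt19, Cdx2 and Vil1 were at or below 1.05 FPKM in every library, Krt18 at 2.81 to 7.72 FPKM and Krt20 at 66.6 to 148 FPKM. Xist was at 0.02 FPKM in control replicate 2 and at 9.20 to 14.2 FPKM in the other 11 libraries. Xist is transcribed from the inactive X chromosome of female cells, the labels used here give no sex, and whether that library came from a mouse of the other sex was not tested. Without it, 0.0293% of all tested genes and none of the 10 members passed in Complex 1 against control by edgeR. Complex 1 replicate 3 and radiation replicate 2 stood apart from their groups in lymphocyte genes: the summed level of 8 T cell markers was 34.96 FPKM in the former against 14.43 and 17.6 in its group, and 8.62 FPKM in the latter against 33.05 and 32.6. Several results that rest on these libraries are given with and without them, and some only as a range over fits with 1 library left out. Because the tissue is mixed, more cells of a type and more RNA per cell cannot be told apart.

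The 10 genes covered a wide range of levels (the plot of member levels by library). In control tumours Tyrobp had the most transcript per length, at 52.8 ± 4.66 FPKM (SD, n = 3 here and below). Fcer1g (27.6 ± 1.73), Fcgr3 (23.2 ± 3.23), Fcgr2b (21.8 ± 2.97) and Fcgr4 (19.5 ± 1.97) followed. The libraries of Fcgr3, Fcgr2b and Fcgr4 overlapped each other, and those of Fcer1g lay above Fcgr3. Fcgr1 stood below them at 13.7 ± 1.37, and Clec7a (5.31 ± 0.188) and Clec4d (5.20 ± 0.520) overlapped. Trem1 (1.28 ± 0.486) and Clec4e (1.23 ± 0.154) were lowest and also overlapped. In the combination Fcgr4 came second after Tyrobp, at 62.4 ± 3.22 FPKM, with libraries that overlapped Fcer1g (56.9 ± 7.15), and Clec4d (17.5 ± 4.93) stood before Clec7a (11.97 ± 4.69), with overlap in this pair too. Counts behind these levels were lowest for Trem1, at 54 to 231 per library, and highest for Fcgr2b, at 1887 to 5158.

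**Figure D1:**
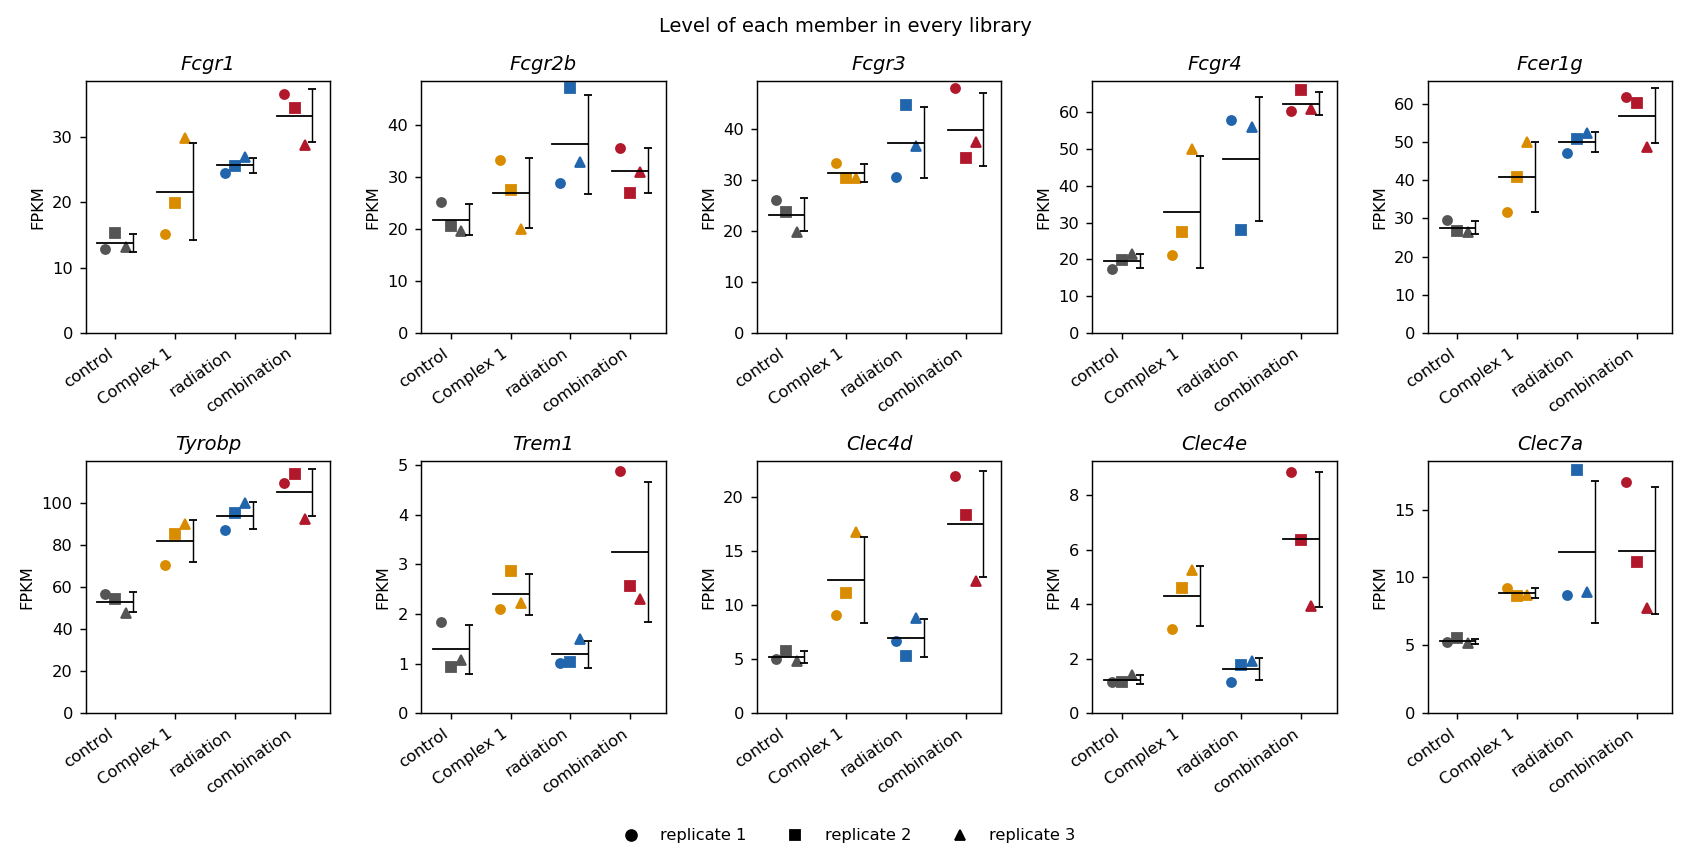
FPKM of each of the 10 genes in all 12 libraries (points, with shapes for replicate numbers), by group; lines are group means and bars the SD of 3 libraries, on axes that start at 0. Fcgr1, Fcer1g and Tyrobp were higher in all radiation and combination libraries than in control, and Clec4e was higher in all Complex 1 and combination libraries than in control or radiation.

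All 4 Fc gamma receptor genes rose in irradiated tumours, and 3 of them, not Fcgr2b, also passed in the combination against control. Across the 10 genes, 7 rose in radiation against control and 9 in the combination, with none lower. The share of all tested genes that rose was 7.39% and 11.9% in these comparisons. In FPKM, 7 of the 10 had every radiation library above every control library, and all 10 had every combination library above control, compared with 17.9% and 23.9% of all tested genes. The median change of the 10 was 0.75 and 1.17, against -0.01 over all tested genes in both comparisons. These comparisons share the control libraries.

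Fcgr1 encodes the high-affinity IgG receptor CD64, which interferon-gamma is known to induce. Its level was 12.79, 15.32 and 13.13 FPKM in the control libraries, 15.19, 19.93 and 29.78 with Complex 1, 24.52, 25.58 and 26.88 with radiation, and 36.59, 34.45 and 28.71 in the combination. All radiation and combination libraries lay above all control libraries, and every combination library lay above every radiation library. Radiation raised it by 0.87 ± 0.19 (adjusted p = 0.010) and the combination by 1.23 ± 0.19 (adjusted p = 0.00071). With Complex 1 its change of 0.63 ± 0.19 did not pass (adjusted p = 0.16). That change passed by DESeq2 (0.62, adjusted p = 0.032) and without Complex 1 replicate 1 (0.83, adjusted p = 0.024). Over all edgeR fits with 1 library left out, it ranged from 0.32 to 0.83, with adjusted p up to 0.45. The combination differed from radiation by 0.35 ± 0.18, which did not pass (adjusted p = 0.53, 95% interval -0.04 to 0.74), and 10.5% of all tested genes showed the same lack of overlap, as did 5 of the members. Fcgr1 (ENSMUSG00000015947) lies on chromosome 3, 96190225 to 96201285, on the reverse strand (mm39).

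Fcgr4, a receptor of macrophages, monocytes and neutrophils, had the largest change with radiation among the 10. The control libraries held 17.47, 19.75 and 21.40 FPKM and the Complex 1 libraries 21.16, 27.40 and 50.14. Radiation libraries held 57.96, 27.89 and 56.14 FPKM, with replicate 2 inside the Complex 1 range, and combination libraries held 60.30, 66.12 and 60.83. The rise with radiation was 1.25 ± 0.29 (adjusted p = 0.016) and with the combination 1.63 ± 0.29 (adjusted p = 0.0020). The radiation call was lost without control replicate 1 or 2 or without radiation replicate 1 or 3, with adjusted p = 0.064, 0.051, 0.064 and 0.055, at changes of 1.07 to 1.26. Over all fits with 1 library left out, the radiation change ranged from 1.07 to 1.52. The change with Complex 1 was 0.72 ± 0.30 and did not pass (adjusted p = 0.34). It ranged from 0.28 to 0.96 over the same fits and passed in none of them. The libraries farthest from their groups, Complex 1 replicate 3 upward and radiation replicate 2 downward, were those that stood apart in T cell markers.

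Fcgr2b, the inhibitory receptor, and its activating neighbour Fcgr3 had another order of libraries. Fcgr2b was at 25.18, 20.50 and 19.67 FPKM in control, 33.29, 27.45 and 19.91 with Complex 1, 28.76, 47.00 and 32.93 with radiation, and 35.58, 26.97 and 31.02 in the combination. Its highest library was radiation replicate 2, the same library in which Fcgr4 was lowest among irradiated tumours. Fcgr2b rose by 0.71 ± 0.20 with radiation (adjusted p = 0.032), but the value without radiation replicate 2 was 0.48 (adjusted p = 0.11). Its call was also lost without control replicate 2 (0.67, adjusted p = 0.10), control replicate 3 (0.63, adjusted p = 0.087) or radiation replicate 3 (0.77, adjusted p = 0.052), and by limma on log2(FPKM + 1) (0.69, adjusted p = 0.058). In the combination its change of 0.47 ± 0.20 did not pass (adjusted p = 0.11). It passed with Complex 1 replicate 3 and radiation replicate 2 both left out (0.47, adjusted p = 0.014), a setting chosen after seeing the data, and with only the groups compared in the fit (0.48, adjusted p = 0.018).

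Fcgr3, which pairs with Fcer1g on macrophages, natural killer cells and mast cells, was at 26.12, 23.75 and 19.74 FPKM in control libraries and at 33.35, 30.42 and 30.40 with Complex 1. It reached 30.68, 44.65 and 36.69 with radiation and 48.03, 34.30 and 37.42 in the combination, and all of these values lay above control. It rose by 0.66 ± 0.15 with radiation (adjusted p = 0.014) and by 0.73 ± 0.15 in the combination (adjusted p = 0.0039). Fcgr2b and Fcgr3 share sequence: 13.4% of the 31-base sequences in Fcgr3 transcripts also occur in Fcgr2b transcripts, and 4.15% of those in Fcgr2b occur in Fcgr3, so a part of their counts may have been assigned to the other gene or dropped. Fcgr1, Fcer1g and Tyrobp had no such sequence in another locus, and Fcgr4 had 1.39%.

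The low-affinity receptor genes and Fcer1g lie in 1 stretch of chromosome 1 in mm39. Fcgr2b (170786186 to 170804116, reverse strand) is followed by Fcgr4 (170846489 to 170857330, forward strand) after 42372 bases. Fcgr3 (170878743 to 170892504, reverse strand) comes 21412 bases further, and Fcer1g (171057141 to 171061934, reverse strand) after another 164636 bases. Likeness of levels was measured as the root mean square difference of log2(FPKM + 1) centred on each gene's mean over the 12 libraries. The closest of the 45 pairs was Fcer1g with Tyrobp on chromosome 7 (0.091), then Fcgr1 with Fcer1g (0.129). Fcgr2b and Fcgr3 were each other's nearest member, at 0.185.

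The level of an activating receptor relative to Fcgr2b is often used to describe how readily immune complexes activate a myeloid cell. The log2 ratio of Fcgr4 to Fcgr2b was -0.53, -0.05 and 0.12 in control libraries, -0.65, -0.0026 and 1.33 with Complex 1, 1.01, -0.75 and 0.77 with radiation, and 0.76, 1.29 and 0.97 in the combination. Every combination library lay above every control library, while the Complex 1 and radiation groups each reached from below to above the control range. For Fcgr1 over Fcgr2b the group means were -0.66 ± 0.29 in control, -0.34 ± 0.86 with Complex 1, -0.47 ± 0.36 with radiation and 0.09 ± 0.24 in the combination. Fcgr3 over Fcgr2b moved least, from 0.09 ± 0.11 in control to 0.35 ± 0.08 in the combination. In the summed level of the 4 receptors, which was 78.3 ± 3.92 FPKM in control and 167 ± 12.04 in the combination, Fcgr4 made up 25.1% ± 3.77 and 37.6% ± 3.81, and Fcgr2b 27.8% ± 2.71 and 18.7% ± 1.74. These ratios were not tested.

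**Figure D2:**
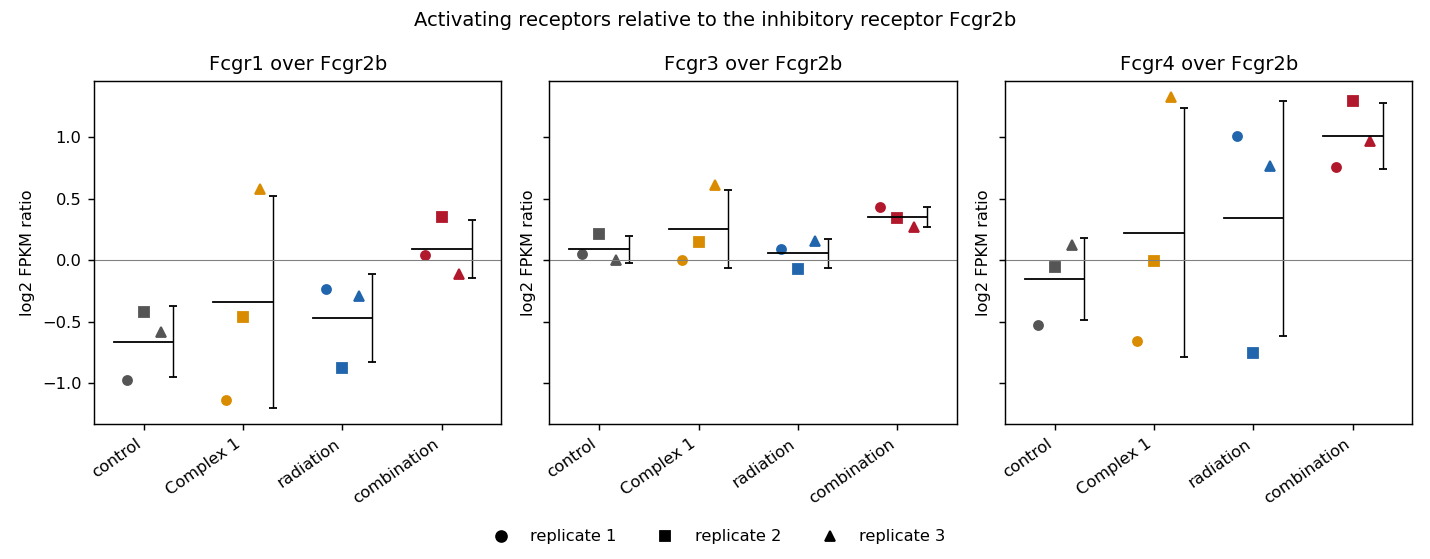
log2 ratio of the FPKM of Fcgr1, Fcgr3 and Fcgr4 to that of Fcgr2b in each library (points), with group means (lines) and SD of 3 libraries (bars). Ratios of Fcgr4 were 0.76 to 1.29 in the combination, and Complex 1 replicate 3 and radiation replicate 2 lay at opposite ends, at 1.33 and -0.75.

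Promoters of Fcgr1 and Fcgr4 are printed because these receptors had the largest rises of the family with radiation. Each runs from 250 bases before to 50 bases after the gene start, from RefSeq in build GRCm38.p6 of the C57BL/6J reference, so letters of the tumour's own genome may differ. Capitals mark letters that match a searched motif on either strand.
Fcgr1, chr3:96293920-96294219, reverse strand: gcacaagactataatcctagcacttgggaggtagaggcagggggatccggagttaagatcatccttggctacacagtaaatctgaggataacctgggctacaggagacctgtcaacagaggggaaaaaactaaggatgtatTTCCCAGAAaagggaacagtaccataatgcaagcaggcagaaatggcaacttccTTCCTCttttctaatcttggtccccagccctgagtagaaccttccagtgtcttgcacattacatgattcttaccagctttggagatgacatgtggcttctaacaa
Fcgr4, chr1:171018676-171018975, forward strand: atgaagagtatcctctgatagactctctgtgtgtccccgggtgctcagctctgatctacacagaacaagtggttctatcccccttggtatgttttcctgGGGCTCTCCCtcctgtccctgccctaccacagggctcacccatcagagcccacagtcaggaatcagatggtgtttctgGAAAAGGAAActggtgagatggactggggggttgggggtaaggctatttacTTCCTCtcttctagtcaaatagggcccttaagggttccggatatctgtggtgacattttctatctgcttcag
The motifs searched were the PU.1 core GAGGAA, the ETS-IRF composite (GGAA, NN, then GAAA), the interferon-stimulated response element (GAAA, NN, then GAAA), the STAT site GAS as TTCNNNGAA, C/EBP as TTGCNNAA, kappaB (GGGNNN, then TNCC) and AP-1 as TGANTCA, and matches may overlap. PU.1 is the ETS factor of the myeloid lineage, and GAS and the response element are the sites through which interferon signals act. Fcgr1 had a GAS match (TTCCCAGAA) that begins 109 bases before its start and a PU.1 match at 55 bases before it. Fcgr4 had a response element match (GAAAAGGAAA) at 73 bases, a PU.1 match at 22 bases and a kappaB match at 151 bases before its start. Windows were found for 9 of the 10 genes, all but Tyrobp. Of these 9, 7 held the PU.1 core, compared with 28.3% of all 32851 windows, 2 held GAS (8.30% of all windows) 2 the response element (3.44%), 2 the ETS-IRF composite (2.72%), 2 C/EBP (10.8%) and 3 kappaB (17.4%). No window of the 9 genes held the AP-1 letters, which 7.81% of all windows held. A match of letters does not show that a factor binds there.

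Both adaptor genes rose with radiation and in the combination, and Tyrobp also rose with Complex 1. Fcer1g was at 29.59, 26.82 and 26.42 FPKM in control, 31.55, 40.78 and 49.97 with Complex 1, 47.16, 50.71 and 52.37 with radiation, and 61.89, 60.13 and 48.72 in the combination. Every treated library lay above every control library. Fcer1g rose by 0.83 ± 0.14 with radiation (adjusted p = 0.0034) and by 0.99 ± 0.14 in the combination (adjusted p = 0.00048), and its change of 0.53 ± 0.14 with Complex 1 did not pass (adjusted p = 0.12). The Complex 1 change passed by DESeq2 (0.53, adjusted p = 0.024) and without Complex 1 replicate 1 (0.69, adjusted p = 0.019). Over all edgeR fits with 1 library left out, it ranged from 0.35 to 0.69, with adjusted p up to 0.36.

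Tyrobp had the smallest p-value of the 10 genes in radiation against control and in the combination against control. Control libraries held 56.53, 54.28 and 47.58 FPKM, Complex 1 libraries 70.68, 85.24 and 90.12, radiation libraries 87.14, 95.16 and 99.83, and combination libraries 109.57, 113.57 and 92.45. It rose by 0.80 ± 0.11 with radiation (adjusted p = 0.0011), by 0.61 ± 0.11 with Complex 1 (adjusted p = 0.021) and by 0.95 ± 0.11 in the combination (adjusted p = 0.00013). The Complex 1 call was lost without control replicate 2 or 3 or Complex 1 replicate 2 or 3, at changes of 0.53 to 0.63 with adjusted p = 0.097, 0.074, 0.088 and 0.076. With only the groups compared in the fit it had 0.60 (adjusted p = 0.073). Tyrobp (ENSMUSG00000030579) lies on chromosome 7, 30113185 to 30117010 (mm39).

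With Complex 1 alone, Clec4e and Tyrobp rose, and Clec4d and Trem1 rose as well in the Complex 1 main effect, which averages over both levels of radiation. Against control, 2 of the 10 genes rose, Tyrobp and Clec4e, compared with 0.717% of all tested genes, and 9 had an unadjusted p under 0.05, compared with 12.5% of all tested genes. All Complex 1 libraries lay above all control libraries in 7 of the 10, compared with 11.4% of all tested genes. Added to radiation, 2 rose, Clec4d and Clec4e, compared with 0.615% of all tested genes. Over both levels of radiation (the Complex 1 main effect), 4 rose, Tyrobp, Trem1, Clec4d and Clec4e, compared with 2.26% of all tested genes.

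Clec4e was at 1.16, 1.13 and 1.41 FPKM in control libraries, 3.10, 4.60 and 5.25 with Complex 1, 1.15, 1.76 and 1.91 with radiation, and 8.86, 6.36 and 3.92 in the combination. The libraries with Complex 1 did not overlap those without it, and those with radiation alone overlapped control. Clec4e rose by 1.78 ± 0.29 with Complex 1 (adjusted p = 0.014), by 2.32 ± 0.29 in the combination against control (adjusted p = 0.00022) and by 1.96 ± 0.28 in the combination against radiation (adjusted p = 0.0071). Its main effect of Complex 1 was 1.87 ± 0.20 (adjusted p = 0.00037). With radiation alone it had 0.36 ± 0.30 (adjusted p = 0.48). The Complex 1 call against control was lost without control replicate 1 (adjusted p = 0.056), control replicate 2 (0.098) or Complex 1 replicate 2 (0.063), at changes of 1.72 to 1.74.

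Clec4d, which forms a complex with Clec4e at the cell surface, had the pattern nearest to it among the members, with a root mean square difference of 0.221. It was at 5.02, 5.79 and 4.80 FPKM in control, 9.10, 11.06 and 16.73 with Complex 1, 6.70, 5.31 and 8.76 with radiation, and 21.91, 18.32 and 12.17 in the combination. Again the libraries with Complex 1 lay above those without it. Its change with Complex 1 was 1.21 ± 0.26 and did not pass (adjusted p = 0.053). It passed by DESeq2 (1.21, adjusted p = 0.00029), with library totals as scaling (1.24, adjusted p = 0.039), and without Complex 1 replicate 1 (1.39, adjusted p = 0.026), radiation replicate 2 (1.21, adjusted p = 0.045) or combination replicate 3 (1.21, adjusted p = 0.037), while its main effect of Complex 1 passed at 1.26 ± 0.18 (adjusted p = 0.0023). The combination against radiation gave 1.31 ± 0.25 (adjusted p = 0.033). That call was lost without control replicate 2 (adjusted p = 0.053), radiation replicate 1 or 2 (0.15 and 0.17) or combination replicate 1 or 2 (0.16 and 0.12), at changes of 1.11 to 1.31, and with the replicate number as a block (1.33, adjusted p = 0.057) or limma on log2(FPKM + 1) (1.21, adjusted p = 0.057).

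Clec4d (123239070 to 123252224, forward strand) and Clec4e (123258748 to 123266829, reverse strand) are neighbours on chromosome 6 in mm39, 6523 bases apart, with their 3′ ends facing each other. Their promoters are printed because this pair had the largest Complex 1 main effects of the 10 genes, with the same source and capitals as above.
Clec4d, chr6:123261857-123262156, forward strand: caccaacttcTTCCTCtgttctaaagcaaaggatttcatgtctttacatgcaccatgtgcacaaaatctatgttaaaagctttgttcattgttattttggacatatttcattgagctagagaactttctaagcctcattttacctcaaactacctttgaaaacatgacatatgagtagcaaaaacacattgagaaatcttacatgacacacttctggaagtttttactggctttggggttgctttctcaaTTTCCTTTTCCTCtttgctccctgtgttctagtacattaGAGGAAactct
Clec4e, chr6:123289822-123290121, reverse strand: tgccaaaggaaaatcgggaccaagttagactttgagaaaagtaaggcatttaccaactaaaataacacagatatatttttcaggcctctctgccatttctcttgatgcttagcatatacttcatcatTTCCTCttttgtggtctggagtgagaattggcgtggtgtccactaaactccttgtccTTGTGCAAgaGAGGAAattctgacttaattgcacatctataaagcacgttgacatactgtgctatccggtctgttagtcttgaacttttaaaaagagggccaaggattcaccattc
Both windows held the PU.1 core, 3 times in Clec4d and 2 times in Clec4e. Clec4e had a C/EBP match (TTGTGCAA, as read on the printed strand) at 66 bases before its start, a motif that 10.8% of all windows held. Clec4d had a response element match that begins at its start base and overlaps a PU.1 match. Neither window held kappaB or GAS letters.

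Trem1 was at 1.84, 0.94 and 1.07 FPKM in control, 2.10, 2.87 and 2.22 with Complex 1, 1.02, 1.04 and 1.5 with radiation, and 4.87, 2.57 and 2.30 in the combination. Libraries with Complex 1 lay above those without it, and radiation libraries fell within the control range. Its main effect of Complex 1 was 1.15 ± 0.22 (adjusted p = 0.015), and it rose by 1.28 ± 0.31 in the combination against control (adjusted p = 0.011). That second call was lost without combination replicate 1 (0.87, adjusted p = 0.051), its highest library, or control replicate 2 (1.10, adjusted p = 0.051). Against radiation the combination had 1.42 ± 0.31 (adjusted p = 0.071), which passed by DESeq2 (1.43, adjusted p = 0.00087). Trem1 (ENSMUSG00000042265) lies on chromosome 17, 48539796 to 48553952.

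Clec7a differed from the other lectins. It was at 5.27, 5.51 and 5.14 FPKM in control, 9.26, 8.65 and 8.68 with Complex 1, 8.73, 17.92 and 8.95 with radiation, and 17.01, 11.15 and 7.74 in the combination. All treated libraries lay above control, and radiation replicate 2 was the highest of the 12, as it was for Fcgr2b. Clec7a rose by 1.13 ± 0.29 with radiation (adjusted p = 0.022), and had 0.71 without radiation replicate 2 (adjusted p = 0.069). Its call was also lost without control replicate 1, 2 or 3 (adjusted p = 0.070, 0.060 and 0.054). It rose by 1.12 ± 0.29 in the combination (adjusted p = 0.014), and had 0.78 without combination replicate 1 (adjusted p = 0.069). Against control its change with Complex 1 was 0.71 ± 0.29 and did not pass (adjusted p = 0.33). That change passed with only the groups compared in the fit (0.71, adjusted p = 0.026). Its Complex 1 main effect was 0.35 ± 0.20 and did not pass (adjusted p = 0.39), with a difference of -0.01 ± 0.27 between the combination and radiation (95% interval -0.60 to 0.58). Clec7a lies on chromosome 6 at 129438554 to 129449742, in mm39, and 6171724 bases from Clec4e.

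Main effects averaged each treatment over both levels of the other. Over both levels of Complex 1, radiation raised 7 of the 10, compared with 13.3% of all tested genes: Fcgr4 by 1.08 ± 0.21, Clec7a by 0.77 ± 0.20, Fcgr1 by 0.74 ± 0.13, Fcer1g by 0.65 ± 0.10, Tyrobp by 0.57 ± 0.08, Fcgr3 by 0.49 ± 0.11 and Fcgr2b by 0.45 ± 0.14. Of these, Tyrobp also passed for Complex 1 by edgeR (0.37 ± 0.08, adjusted p = 0.019). By DESeq2, Fcgr1 (0.49, adjusted p = 0.0059) and Fcer1g (0.35, adjusted p = 0.025) passed for Complex 1 as well, and Fcgr1 passed in edgeR with library totals as scaling (0.51, adjusted p = 0.049). That Tyrobp call was lost without Complex 1 replicate 2, radiation replicate 1 or combination replicate 1 or 2, at 0.34 to 0.36 (adjusted p = 0.052 to 0.059). The Fcgr2b radiation main effect was lost without control replicate 2 or 3, Complex 1 replicate 2, radiation replicate 2 or combination replicate 1 or 3, at 0.34 to 0.46 (adjusted p = 0.053 to 0.071), and had 0.25 (adjusted p = 0.073) with Complex 1 replicate 3 and radiation replicate 2 both left out. The Clec4d radiation main effect did not pass by edgeR (0.43 ± 0.18, adjusted p = 0.094) and did by DESeq2 (0.44, adjusted p = 0.043). In edgeR it passed without Complex 1 replicate 3 (0.58, adjusted p = 0.017) or combination replicate 3 (0.54, adjusted p = 0.036). Its range with 1 library left out was 0.33 to 0.58, with adjusted p up to 0.22.

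**Figure D3:**
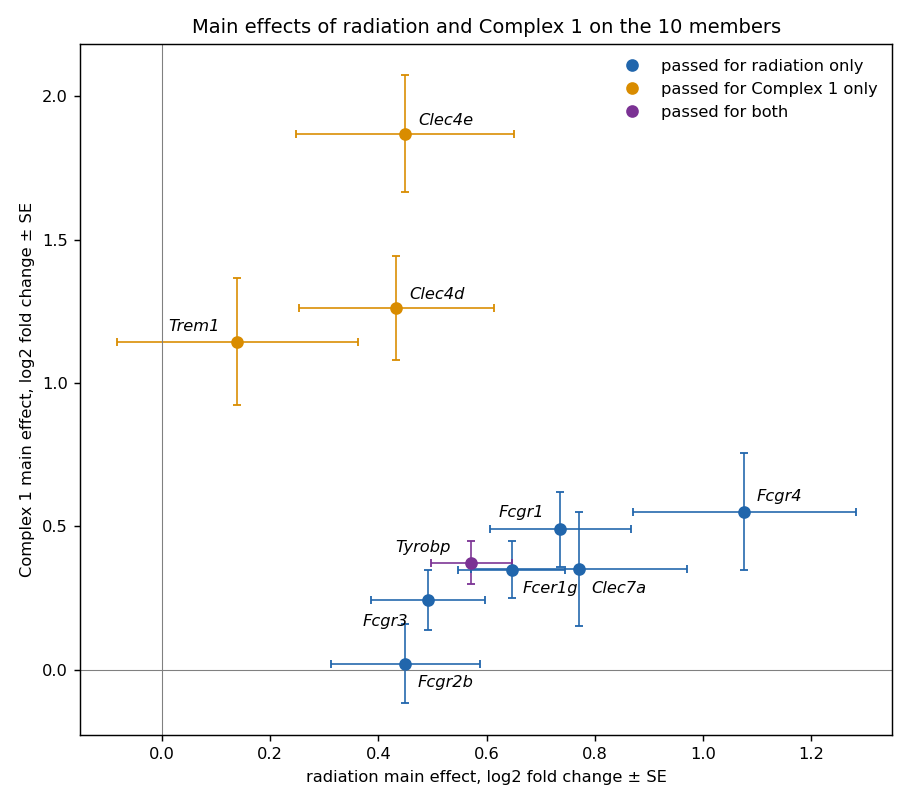
Main effect of radiation (x) and of Complex 1 (y) on each of the 10 genes, as log2 fold changes from edgeR; bars are SE. Trem1, Clec4d and Clec4e had Complex 1 effects of 1.15 to 1.87, and the other 7 genes had 0.02 to 0.55.

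The difference of the main effects equals radiation against Complex 1, a contrast added after the values were seen. Clec4e was lower with radiation than with Complex 1 by -1.42 ± 0.28 (adjusted p = 0.010), compared with 5.49% of all tested genes lower. In FPKM, Trem1, Clec4d and Clec4e had every radiation library below every Complex 1 library, compared with 15.4% of all tested genes. It had -1.22 without radiation replicate 1 (adjusted p = 0.051). Trem1 (-1.01 ± 0.32, adjusted p = 0.065) and Clec4d (-0.83 ± 0.25, adjusted p = 0.059) did not pass by edgeR and did by DESeq2 (adjusted p = 0.018 and 0.012). None of the other 7 passed by edgeR. Fcgr4 had 0.52 ± 0.29 (95% interval -0.10 to 1.14). With Complex 1 replicate 3 and radiation replicate 2 both left out, a setting chosen after seeing the data, Fcgr4, Fcgr1 and Fcer1g passed at 1.24, 0.56 and 0.47. For Fcgr4 those were the highest Complex 1 library (50.14 FPKM) and the lowest radiation library (27.89 FPKM). Leaving them out widens this difference by the choice itself, so that fit is no support for it.

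Radiation added to Complex 1 gave changes of the same sign in all 10 genes, from 0.19 in Fcgr2b to 0.90 in Fcgr4, and none passed edgeR's test. Of the 10, 5 had an unadjusted p under 0.05, compared with 25.6% of all tested genes, and 3 passed by DESeq2 (Fcgr1, Fcer1g and Tyrobp), by which 6.65% of all tested genes rose. By edgeR 4.73% of all tested genes rose. Every combination library lay above every Complex 1 library in Fcgr3, Fcgr4 and Tyrobp, compared with 16.5% of all tested genes. Without Complex 1 replicate 3, 7.56% of all tested genes rose and 5 members passed: Fcgr1 (0.91, adjusted p = 0.00074), Fcgr4 (1.35, adjusted p = 0.0032), Fcer1g (0.64, adjusted p = 0.0051), Tyrobp (0.42, adjusted p = 0.027) and Clec4d (0.78, adjusted p = 0.045). With all libraries these genes had 0.60 ± 0.18, 0.90 ± 0.29, 0.46 ± 0.14, 0.34 ± 0.11 and 0.48 ± 0.25. Fcgr4 also passed without radiation replicate 2 (0.90, adjusted p = 0.024), and Fcer1g and Tyrobp without combination replicate 3 (0.57 and 0.43, adjusted p = 0.042 and 0.036). For the interaction, which asks whether the combination departs from the sum of both log2 changes, none of the 10 and 0% of all tested genes passed. By edgeR 1 of the 10 had an unadjusted p under 0.05, Tyrobp at -0.47 ± 0.15, compared with 4.4% of all tested genes, and none passed by DESeq2 or limma. The widest 95% intervals of the interaction were -0.40 to 1.51 in Trem1 and -1.23 to 0.54 in Fcgr4, so departures within them remained compatible with these data.

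Genes of the same families and of the pathway were read from lists by function. The share of tested genes that passed in either direction, beside which the list counts stand, was 13.2% with radiation, 0.812% with Complex 1, 21.9% in the combination and 0.651% in the combination against radiation. Among 6 tested other Fc receptor genes, 3 rose with radiation: Fcgrt, the neonatal Fc receptor that recycles IgG (0.57 ± 0.09), Trim21, a cytosolic antibody receptor (0.91 ± 0.21), and Cd180 (1.19 ± 0.27), a Toll-like receptor relative that does not bind Fc. Fcgrt was at 31.1 ± 0.589 FPKM in control, 31.2 ± 1.99 with Complex 1, 47.1 ± 6.34 with radiation and 41.7 ± 1.94 in the combination. Fcer1a, the IgE-binding chain that also needs Fcer1g, had 0.54 with radiation and did not pass (adjusted p = 0.39). Of 11 tested genes for partners of Tyrobp or the related adaptor DAP10, 4 rose with radiation and 8 in the combination. Cd300c2 rose by 1.06 ± 0.15 with radiation and by 0.77 ± 0.15 with Complex 1 (adjusted p = 0.036). Trem2, a lipid-sensing receptor of macrophages, rose by 0.72 ± 0.14 with radiation and had 0.32 with Complex 1 (adjusted p = 0.38). Trem3, a relative of Trem1, was at 0.237 ± 0.225 FPKM in control and 1.14 ± 0.313 with Complex 1. That change, 2.20 ± 0.50, did not pass (adjusted p = 0.065), while its Complex 1 main effect was 2.27 ± 0.36 (adjusted p = 0.0041). Trem3 was at most 0.49 FPKM in control and 0.27 FPKM in radiation libraries. It therefore entered the tested genes only through libraries with Complex 1, where it was higher.

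Among 8 tested other myeloid lectin genes, 6 rose with radiation, 6 in the combination and none with Complex 1 against control by edgeR. Clec4n, the Dectin-2 gene that also signals through Fcer1g, rose by 0.99 ± 0.20 with radiation, from 15.6 ± 3.32 to 31.7 ± 6.03 FPKM. Cd302 rose by 1.18 ± 0.16 and Clec4a2, which carries an inhibitory motif, by 0.55 ± 0.13. Clec4a1 had 0.77 ± 0.17 with Complex 1 (adjusted p = 0.062) and passed for the Complex 1 main effect at 0.62 ± 0.12. The mannose receptor Mrc1 did not pass in radiation or combination against control (0.59 and 0.24).

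Of 29 ITAM signalling genes, all tested, 16 rose and 1 fell with radiation, 3 rose with Complex 1 and 22 rose in the combination. Syk itself was at 2.88 ± 0.206 FPKM in control, 4.18 ± 0.421 with Complex 1, 3.80 ± 0.269 with radiation and 5.39 ± 0.608 in the combination. It rose by 0.51 ± 0.10, 0.37 ± 0.10 and 0.86 ± 0.10 in those groups (adjusted p = 0.041, 0.033 and 0.00019). The genes with the smallest p under radiation were those of the adaptor Pik3ap1 (1.04 ± 0.17), the lipid kinase Pik3cd (0.53 ± 0.09) and the Src-family kinase Lyn (0.53 ± 0.10), and Sos1 was the gene that fell (-0.33 ± 0.09). Downstream of the lectins, Card9 rose by 0.53 ± 0.16 and Malt1 by 0.38 ± 0.10 in the combination, and Bcl10 had -0.02 ± 0.09.

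Inhibitory receptors and phosphatases also rose in part, 12 of 19 with radiation, 5 with Complex 1 and 14 in the combination. Siglec1, a sialic acid receptor of macrophages, had the largest change of this list with radiation, 1.44 ± 0.10 (adjusted p = 7.4e-06). Dok3, an adaptor that restrains Syk signals, rose by 0.76 ± 0.11 with radiation and 0.83 ± 0.11 with Complex 1, and Pirb, an inhibitory receptor, rose by 0.80 ± 0.13 with Complex 1. Inpp5d, the SHIP1 phosphatase that acts at Fcgr2b, rose by 0.57 ± 0.10 with Complex 1 (adjusted p = 0.024) and by 0.91 ± 0.10 in the combination.

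Cytokine and chemokine genes that Card9 and Trem1 signals are known to induce had another distribution over groups. Of 15 tested, 1 rose with radiation (Ccl2, by 0.93 ± 0.17), 3 with Complex 1, 14 in the combination against control and 7 in the combination against radiation. Cxcl2, a neutrophil chemokine, went from 1.59 ± 0.994 FPKM with radiation to 24.1 ± 8.20 in the combination (3.89 ± 0.45, adjusted p = 0.0034). Il1b went from 8.80 ± 3.17 to 57.0 ± 15.7 FPKM (2.68 ± 0.38) and Cxcl3 from 0.393 ± 0.304 to 5.25 ± 3.45 (3.72 ± 0.55). The radiation mean of Cxcl3, which is among the 7, was below the filter of 1 FPKM. Cxcl3 may therefore have entered the tested genes only through groups where it was higher. Ptgs2 was the tested gene of the list that did not pass in the combination against control (0.13, adjusted p = 0.73). Median changes in the combination against radiation were 1.35 in this list, 0.20 in the ITAM list and 0.23 in the inhibitory list, against 0.00 over all tested genes.

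**Figure D4:**
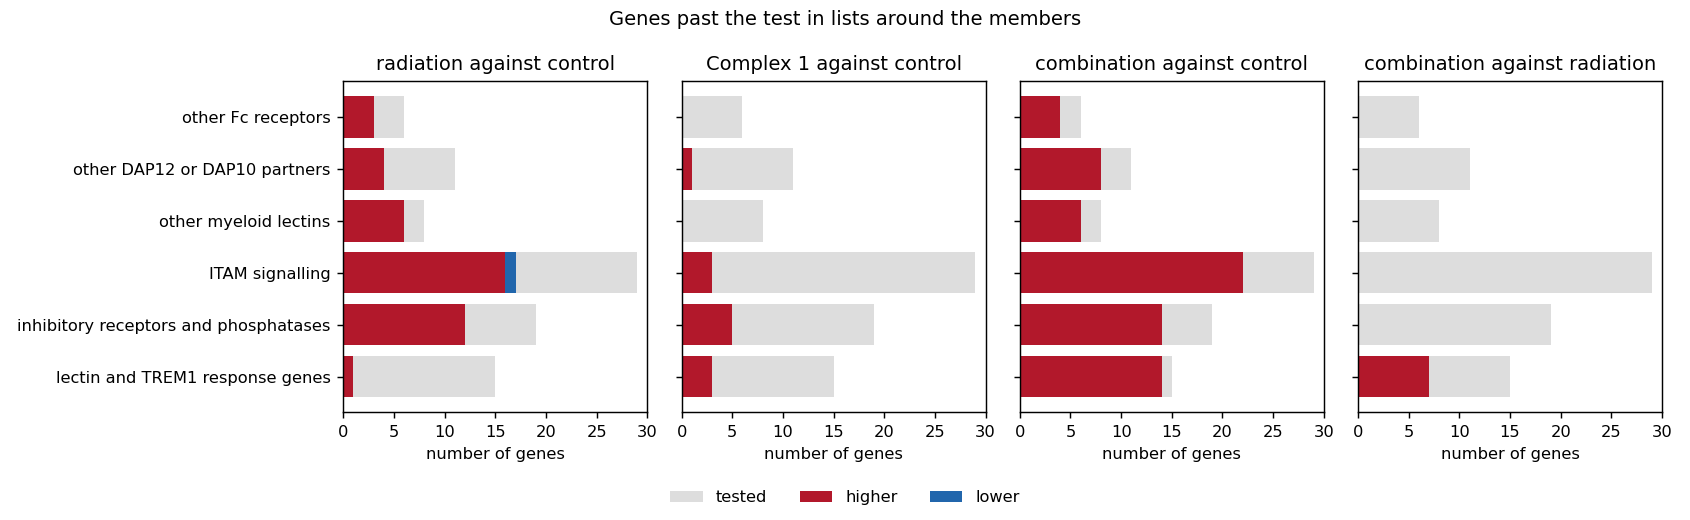
Number of genes in 6 lists around the members that were tested (grey), rose (red) or fell (blue) by edgeR in 4 comparisons. In the combination against radiation, 7 of 15 lectin and Trem1 response genes rose and none of the other lists had a gene that passed.

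Markers of several of the cell types that express these receptors differed between groups. For 13 macrophage markers the summed level was 1062 to 1258 FPKM in control, 1488 to 1660 with Complex 1, 2147 to 2369 with radiation and 2214 to 2395 in the combination. Of these, 8 rose with radiation, 1 with Complex 1 and 9 in the combination, and all were detected. For this and the other marker lists, the shares of all tested genes that rose were 7.39% with radiation, 0.717% with Complex 1 and 11.9% in the combination. In the combination against radiation the share was 0.615%. For 14 neutrophil markers the sums were 13.6 to 23.5, 104 to 212.5, 12.6 to 41.2 and 263.8 to 435.2 FPKM in the same order of groups. With Complex 1, 7 of the 10 tested neutrophil markers rose, and 8 rose in the combination against radiation. Because the sums were low without Complex 1, some of these markers may have passed the filter of 1 FPKM only through libraries with Complex 1. Their counts may therefore follow in part from that filter. Ly6g was at or below 0.17 FPKM in each group mean and Ngp at 3 counts or fewer in each library. Combination replicate 1, which had the highest Trem1, Clec4d and Clec4e of the 12 libraries, also had the highest neutrophil sum, at 435.2 FPKM. The order differed within the Complex 1 group. There replicate 3 had the highest Clec4d (16.73 FPKM) and Clec4e (5.25 FPKM) but the lowest neutrophil sum (104 FPKM). Replicate 2 had that group's highest Trem1 (2.87 FPKM) and neutrophil sum (212.5 FPKM). For 8 natural killer cell markers, a cell type that carries Fcgr3 and Tyrobp, sums were 12.1 to 33.9, 25.95 to 44.7, 60.9 to 80.3 and 97.8 to 101 FPKM. Sums of 10 monocyte markers overlapped between control and irradiated groups, at 440.3 to 603.4 FPKM in control, 416.5 to 439.2 with Complex 1, 488.9 to 562.6 with radiation and 497.4 to 561.5 in the combination. Of 8 tested monocyte markers, 4 rose with radiation, 5 in the combination and none with Complex 1. Sums of 9 dendritic cell markers were 4.05 to 6.84, 6.15 to 7.7, 7.14 to 9.29 and 6.45 to 8.63 FPKM in the 4 groups. Sums of 12 mast cell, basophil and eosinophil markers were 49.83 to 83.13 FPKM in control, 45.9 to 138 with Complex 1, 96.7 to 107.5 with radiation and 85.97 to 126.1 in the combination, so that the irradiated libraries lay above control, and none of the 6 tested passed by edgeR. B cell marker sums were 0.55 to 4.43 FPKM. The part of any of these in the members' changes was not tested.

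**Figure D5:**
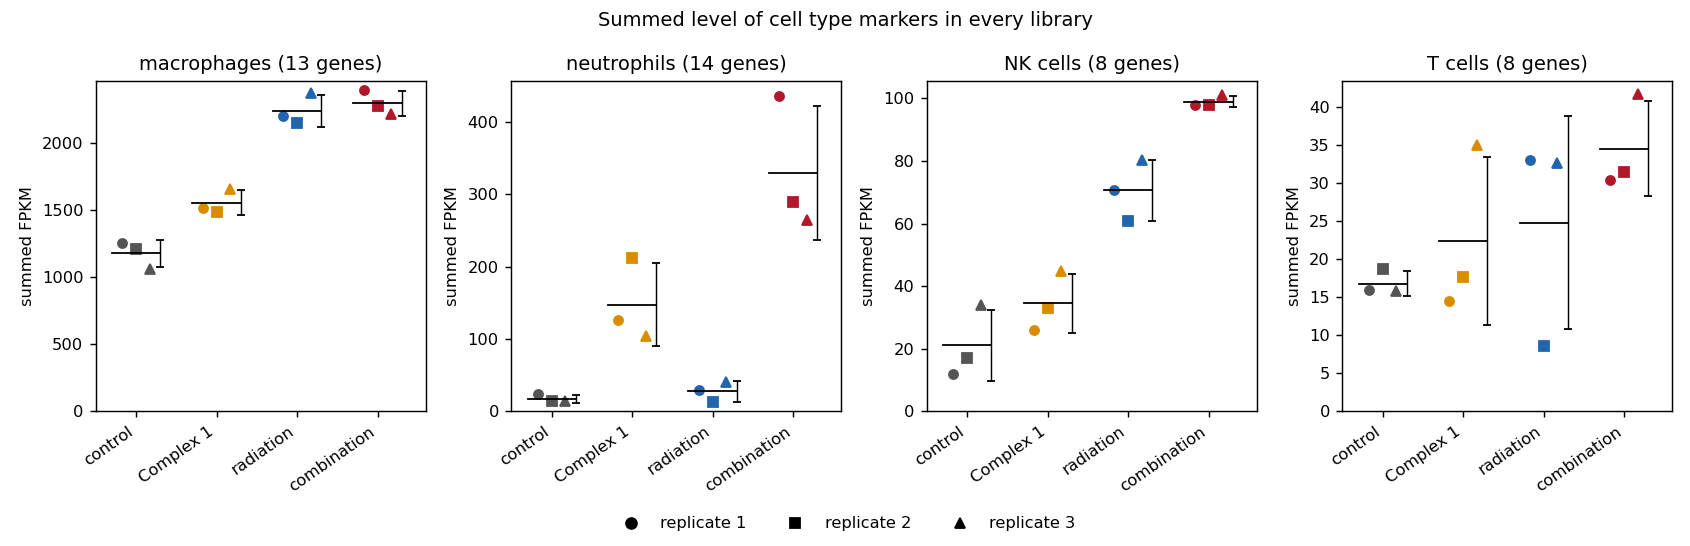
Summed FPKM of markers of macrophages, neutrophils, natural killer (NK) cells and T cells in each library (points), with group means (lines) and SD of 3 libraries (bars), on axes that start at 0. Neutrophil sums were 104 to 435.2 FPKM with Complex 1 or the combination and 12.6 to 41.2 FPKM without Complex 1, and radiation replicate 2 had the lowest T cell sum (8.62 FPKM).

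Genes with the levels most alike Fcer1g over the 12 libraries, by the same root mean square difference, were Ctsh (0.086), a lysosomal protease, Cfp (0.102), the complement factor properdin, Icam1 (0.103), an adhesion molecule, Cybb (0.113), the catalytic chain of the phagocyte oxidase, and Tlr13 (0.119), a receptor for bacterial RNA, compared with a median of 0.432 over all other tested genes. Ctsh had mean levels of 4.77, 7.51, 8.83 and 11 FPKM in control, Complex 1, radiation and combination tumours, the order in which Fcer1g had 27.6, 40.8, 50.1 and 56.9. The genes most alike Clec4e were Mir26b (0.200), Cstdc4 (0.233), Il1f9 (0.238), Hdc (0.242) and Mcemp1 (0.247), compared with a median of 0.746. Mir26b is an entry of 85 bases with at most 3 counts per library, so its place rests on very few reads. Mir26b, Cstdc4, Il1f9 and Mcemp1 had means below 1 FPKM in control and radiation. They passed the filter of 1 FPKM in 3 libraries through libraries with Complex 1, where Clec4e was also higher. Their likeness to Clec4e therefore follows in part from that filter. Hdc, the histidine decarboxylase gene, had means of 1.06, 3.61, 1.62 and 6.06 FPKM in the same order of groups, and Il1f9, a cytokine gene of the interleukin 1 family, had 0.28, 1.57, 0.273 and 3.43.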

How the data were processed

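RNA was sequenced from 12 CT26 tumour samples, with total RNA and an NEB library kit named in the labels' protocols. The submitters' processing notes list the tools HTSeq 2.0.1, STAR 2.5.3a and DESeq2, named along with build mm39. The order of steps, the strand setting and any filter were not stated there, so reads of overlapping genes cannot be told apart. Per the file headers, the authors deposited raw counts per gene and library and FPKM, which were recomputed from those counts and exon lengths within 0.005. Entries without a symbol (1492) held 0.0579% to 0.0706% of counts. Transcripts of GENCODE M21 (GRCm38) gave shared 31-base sequences, and RefSeq promoters (GRCm38.p6) were matched by symbol.

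Counts of genes with at least 1 FPKM in at least 3 libraries were scaled by TMM and fitted with edgeR 4.0.16 (R 4.3.3), using group means over all 12 libraries; limma 3.58.1 and DESeq2 1.42.0 served as alternatives. There were 8 planned contrasts and 1 added after the values were seen. Named were all 10 members, up to 3 genes of each list with the smallest p among those past the threshold, and the 5 genes most alike Fcer1g and Clec4e; Fcer1a, Mrc1, Sos1, Card9, Malt1, Bcl10, Ptgs2 and the marker genes fall outside that rule and were chosen after their values were seen. Members, lists and contrasts were chosen with earlier results of these data known. The code was tested on simulated counts. A floor of 3 counts was 0.0524 to 0.0642 FPKM in Trem1, and such floors cover counting error only. Alternatives were other scalings and filters, fits of only the groups compared, a replicate block and each library left out. Counts of any 2 libraries of a group differed beyond sampling noise (chi-square divided by its degrees of freedom, 4.94 or more).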

Additional observations from a re-analysis of the deposited data

How the results depend on the processing

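The number of members past the threshold was within 1.5 times the main count under every alternative for radiation against control, the combination against control and the radiation main effect, apart from single libraries left out. Leaving out 1 library at a time gave 4 to 7 members in radiation against control, 0 to 5 in Complex 1 against control, 7 to 9 in the combination against control, 1 to 3 in the combination against radiation, 0 to 5 in the combination against Complex 1, 6 to 8 and 3 to 6 for the radiation and Complex 1 main effects, 0 to 4 in radiation against Complex 1 and 0 for the interaction. The share of all tested genes called moved as well, from 6.33% to 14.7%, 0.0293% to 1.73%, 15.2% to 23.2%, 0.183% to 0.732%, 4.26% to 13.8%, 20.6% to 27.8%, 1.46% to 4.45%, 2.91% to 10.5% and 0% in the same order. Percentages beside the counts below are the share of all genes called in the same fit. Testing all genes with any count (31727) gave 9 members in Complex 1 against control (2.53%), 5 in the combination against radiation (1.67%), 8 in the combination against Complex 1 (7.2%), 9 for the Complex 1 main effect (3.98%), 2 for the interaction (Fcgr2b and Clec7a, 0.514%) and 6 in radiation against Complex 1 (6.64%). In that fit Clec4d had 1.19 (adjusted p = 2.7e-14) in Complex 1 against control, compared with 1.21 (adjusted p = 0.053) in the main fit. DESeq2 gave 5 in Complex 1 against control (2.39%), 3 in the combination against Complex 1 (12.8%) and 3 in radiation against Complex 1 (11.9%). In the combination against Complex 1, median-ratio scaling gave 2 (10.3%) and library totals 3 (10.3%). In the combination against radiation, limma gave 1 with either pseudocount (0.593% with 1 and 0.534% with 0.1). With only the groups compared in the fit, radiation against Complex 1 gave 2 (4.62%). With both libraries that stood apart left out, a setting chosen after seeing the data, the counts were 1 in Complex 1 against control (0.483%), 5 in the combination against Complex 1 (15.8%) and 4 in radiation against Complex 1 (11.9%). With the replicate number as a block, the combination against radiation gave 1 (0.571%) and the combination against Complex 1 gave 1 (Fcgr4, 11.1%). Libraries with the same number did not pair by the data: correlations of their deviations were -0.204 to 0.164 over 18 pairs, and -0.242 to 0.177 over 36 pairs with different numbers. Some changes near 0 turned sign. For Clec7a in the combination against radiation they were 0.0070 with library totals, 0.021 and 0.023 by limma, and 0.41 with both libraries left out, which also gave 0.042 for Fcgr1 in the interaction and -0.011 for Clec7a in radiation against Complex 1. With 1 library left out, some changes turned sign in a part of the fits, and the ranges given here cover all 12 such fits. The values were -0.34 to 0.21 for Trem1 and radiation against control. In the combination against radiation they were -0.083 to 0.22 for Fcgr3 and -0.36 to 0.41 for Clec7a. They were -0.066 to 0.31 for the Trem1 radiation main effect and -0.074 to 0.14 for the Fcgr2b Complex 1 main effect. In the interaction they were -0.47 to 0.038 for Fcgr1, -0.62 to 0.10 for Fcgr4, -0.093 to 0.40 for Clec4d and -0.12 to 0.45 for Clec4e, and in radiation against Complex 1 they were -0.0026 to 0.61 for Clec7a. The cause of these changes was not tested.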
